A study of Mus musculus with 24 samples.

Results

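The samples examined were 7 of the 24 mouse brain samples of the series, the 3 titled for chemoradiation followed by UCI-191 vesicles (RT-TMZ + UCI-191 EV) and the 4 titled for chemoradiation followed by vehicle (RT-TMZ + Veh), taken by their titles and described over all 757 probes of the panel. All mice were male C57BL/6J, 27 weeks old at perfusion. Neither group carried a tumor, and both received cranial irradiation in 3 fractions of 9 Gy, as the labels give the dose, with temozolomide (TMZ) at 25 mg/kg during and 66.7 mg/kg after the irradiation. Extracellular vesicles (EVs) from the human neural stem cell line UCI-191, or saline vehicle, were then injected behind the eye once a week. The vesicles were thus human and the recipients immunocompetent mice, all EVs came from 1 cell line, and vesicles from another cell type were not among the groups. Control + Veh mice (n = 4) had vehicle without irradiation or TMZ, RT-TMZ + Shef6 EV mice (n = 3) had vesicles of a different human neural stem cell line after the same chemoradiation, and CT2A + RT-TMZ + Veh (n = 4) and CT2A + RT-TMZ + UCI-191 EV mice (n = 3) had an implanted CT2A glioma. RNA came from 100 mg of tissue that the labels give only as brain and the study as hippocampus, and which region each sample held was not settled.

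Cranial irradiation and TMZ damage DNA in dividing and non-dividing brain cells, and the p53 pathway answers with cell cycle inhibitors such as Cdkn1a. Microglia, the resident macrophages of the brain, and astrocytes stay activated long afterwards and raise complement, phagocytic receptors and cytokines, while neurons lose synapses. Extracellular vesicles are membrane particles that carry proteins and RNA between cells, and those of neural stem cells are studied as a cell-free means to limit this late inflammation.

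Barcoded probes (nCounter Mouse Neuroinflammation panel) counted the RNA of each gene without amplification, and each value below is a deposited log2 normalized count. The total count implied by the recovered scaling factors was 1272034 to 1477477 per sample, and 64 to 85 genes in each fell below 20 normalized counts (log2 4.32), the level used as background. RT-TMZ + Veh replicate 1 stood apart. It correlated with the other 6 samples across genes at Pearson r = 0.986 to 0.992, against 0.993 to 0.996 among those 6, and it was the lowest of the 7 samples in 253 of 757 probes (33.4%). Of the differences and list medians that moved without it, many are given with and without it, but not all. Of the cell type markers, all 12 measured neuronal, 6 astrocyte, 7 microglial and 4 oligodendrocyte genes lay above background in all 7 samples, while 5 of 6 T and NK cell markers lay under background in all 7. Fewer cells of a type and less RNA per cell cannot be told apart in such bulk tissue.

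No gene differed between UCI-191 EV and vehicle mice beyond the threshold of an adjusted p of 0.05 over the 757 probes (limma). The count was 0 of 757 (0%), while before adjustment 15 probes were higher (1.98%) and 30 lower (3.96%) at p under 0.05, and the methods' t-test also gave 0 (52 unadjusted). The smallest adjusted p was 0.499. The study's methods use a looser cutoff for exploration. At an adjusted p under 0.5, a threshold added after the values had been seen, 1 probe passed (0.132%), that of S100b. Differences were small throughout, with a median size of 0.083 on the log2 scale, and 366 probes were higher and 388 lower. Of 681 probes above background, the 95% interval of the difference lay within 0.5 in either direction for 508 and within 1 for 652, so for most genes a change of 2-fold lay outside the interval. The median of all probes per sample was 0.08 higher with UCI-191 EV (exact permutation test, two-sided p = 0.286, where 0.0571 is the smallest p this design allows).

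The genes that separated the groups most cleanly had small differences. In 50 of 757 probes (6.61%) every UCI-191 EV sample lay on the same side of every vehicle sample. Of these, 18 were higher (2.38%) and 32 lower (4.23%). With arbitrary labels each probe would separate in this way with a probability of 0.0571, which is close to that share. Of the 50, the 12 with the smallest p in each direction, among those above background, are described here by what they do. None of them passed the adjusted test. Apart from S100b, their adjusted p was 0.735.

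Among genes of DNA damage and growth arrest, Gadd45g, a stress-induced partner of cell cycle proteins, lay at 8.43, 8.42, 8.50 and 8.58 with vehicle and at 8.85, 8.70 and 8.80 with UCI-191 EV, a log2 difference of 0.30 (standard error 0.07, a fold of 1.23). Its 4 Control + Veh samples, at 8.95, 8.93, 8.93 and 9.05, lay above both groups. The order was thus untreated, UCI-191 EV and vehicle from high to low, with no overlap between neighbours. Sesn2, a stress-induced regulator of metabolism, was at 7.71, 7.60, 7.71 and 7.87 with vehicle and at 7.96, 7.88 and 8.02 with UCI-191 EV (difference 0.23, standard error 0.09). Here the highest vehicle sample came within 0.01 of the lowest UCI-191 EV sample. Bak1, which opens the mitochondrial membrane in apoptosis, differed by 0.15 (standard error 0.06), and Ccng2, a cyclin linked to growth arrest, by −0.14 (standard error 0.04).

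Dna2, a nuclease and helicase of replication and repair, was at 5.19, 5.00, 5.06 and 5.02 with vehicle and at 5.41, 5.40 and 5.54 with UCI-191 EV (difference 0.38, standard error 0.12). Ncaph, a condensin subunit that compacts chromosomes, was at 4.90, 5.24, 4.93 and 5.02 against 5.28, 5.48 and 5.54 (difference 0.41, standard error 0.14). Both lay only about 1 log2 unit above background, and their Control + Veh samples overlapped both groups. Setd1a and Setd1b, the catalytic subunits of complexes that methylate histone H3 at active promoters, each differed by 0.12 (standard errors 0.05 and 0.04). In both the UCI-191 EV mean lay between those of vehicle and of Control + Veh mice, and for Setd1b the samples of all 3 groups did not overlap.

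Eef2k, the kinase that slows protein synthesis by phosphorylating elongation factor eEF2, was at 8.39, 8.37, 8.47 and 8.50 with vehicle and at 8.81, 8.76 and 8.63 with UCI-191 EV (difference 0.30, standard error 0.07). The Control + Veh samples, at 8.71, 8.75, 8.61 and 8.62, overlapped the UCI-191 EV samples and lay above every vehicle sample. Man2b1, a lysosomal mannosidase, was at 10.08, 10.27, 10.24 and 10.22 against 10.38, 10.36 and 10.45 (difference 0.19, standard error 0.06), and here it was the vehicle samples that overlapped Control + Veh. Calr, the chaperone calreticulin, was at 13.82 to 14.02 in the 4 vehicle samples against 13.78, 13.57 and 13.67 (difference −0.25, standard error 0.07). Its 4 Control + Veh samples, at 13.54, 13.54, 13.65 and 13.60, overlapped those of UCI-191 EV mice and lay below all vehicle samples. Rb1cc1, a scaffold of the kinase complex that starts autophagy, differed by −0.15 (standard error 0.04), and Rps21, a protein of the small ribosomal subunit, by −0.11 (standard error 0.04).

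The lower set also held genes of astrocytes, neurons and signaling. S100b, a calcium-binding protein that astrocytes make and release, had the smallest p of all probes, at 11.33, 11.30, 11.33 and 11.42 with vehicle and at 11.15, 11.12 and 11.06 with UCI-191 EV (95% interval of the difference −0.34 to −0.13, adjusted p = 0.499). In S100b the UCI-191 EV samples overlapped those of Control + Veh, at 11.18, 11.24, 11.22 and 11.11. Homer1, a scaffold of the postsynaptic density, was at 12.41, 12.13, 12.10 and 12.07 against 11.99, 11.80 and 11.93. Its difference of −0.27 (standard error 0.09) was −0.19 without RT-TMZ + Veh replicate 1. Creb1, a transcription factor of activity-dependent genes, was at 9.41, 9.46, 9.50 and 9.43 against 9.28, 9.26 and 9.28 (difference −0.18, standard error 0.05). In these 2 genes the UCI-191 EV samples lay below every untreated sample as well. Mapk10, a stress kinase (JNK3) of neurons, Rala, a small GTPase of vesicle traffic, and Vamp7, a vesicle fusion protein, had differences of −0.14, −0.13 and −0.15, with standard errors of 0.05, 0.04 and 0.04.

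Immune receptor genes were on both sides. Cd72, an inhibitory receptor of B cells that microglia also express in disease, was at 5.23, 5.60, 5.29 and 5.42 with vehicle and at 4.97, 5.05 and 4.93 with UCI-191 EV (difference −0.40, standard error 0.14), and at 4.62, 4.25, 3.52 and 3.66 in Control + Veh mice. The 3 groups did not overlap, and the UCI-191 EV samples were in the middle. All but the highest untreated sample of Cd72 lay under background, so its untreated level cannot be read. Csf3r, the receptor for the neutrophil growth factor G-CSF, was at 5.97, 5.91, 6.10 and 6.06 against 5.77, 5.62 and 5.66 (difference −0.33, standard error 0.12). Mavs, the mitochondrial adaptor of RNA sensing, had a difference of 0.35 (standard error 0.15) that was 0.23 without RT-TMZ + Veh replicate 1. Ptger4, a prostaglandin E2 receptor, and Il15ra, which presents interleukin-15, differed by 0.30 and 0.22 (standard errors 0.14 and 0.11), and of the 24 genes these 2 alone had an unadjusted p over 0.05.

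**Figure D1:**
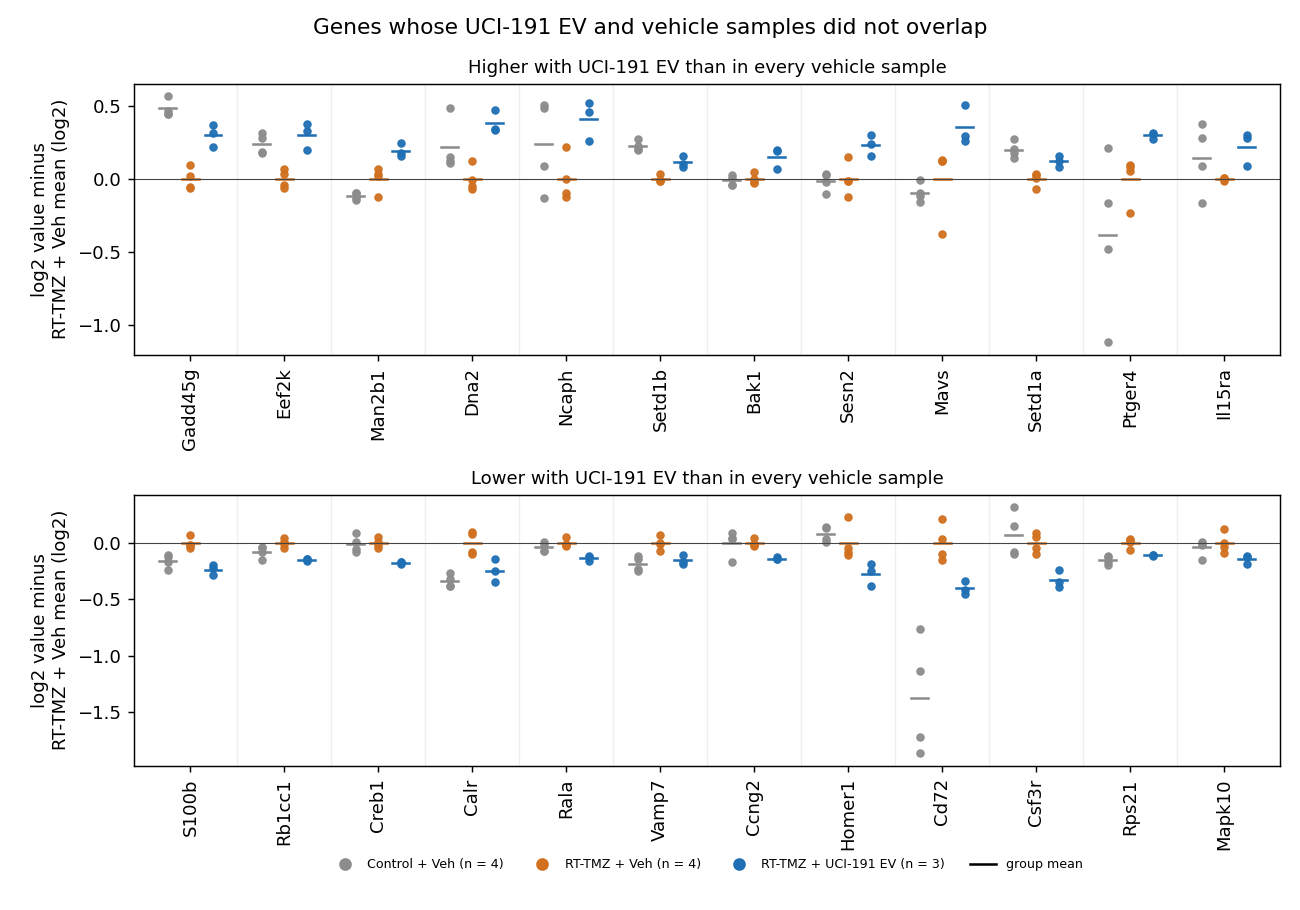
Each point is 1 sample's log2 value minus the RT-TMZ + Veh mean of that gene, for the 12 higher and 12 lower genes with the smallest p whose UCI-191 EV and vehicle samples did not overlap; short lines are group means, grey is Control + Veh (n = 4), orange RT-TMZ + Veh (n = 4) and blue RT-TMZ + UCI-191 EV (n = 3). UCI-191 EV and vehicle means lie within 0.41 of each other in all 24 genes, and Gadd45g, Setd1b and Cd72 show UCI-191 EV samples between the other 2 groups without overlap. All but the highest untreated point of Cd72 lie under background.

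The largest positive differences all involved RT-TMZ + Veh replicate 1. Ttr, which encodes transthyretin and is made in the brain mainly by the choroid plexus, was at 6.67 in that sample, at 14.40, 14.43 and 12.84 in the other vehicle samples and at 14.84, 14.25 and 14.85 with UCI-191 EV. The log2 difference of 2.56 (standard error 1.72) was 0.76 without that sample. Control + Veh samples were also low and spread, at 9.19, 10.27, 6.72 and 7.02, and of the RT-TMZ + Shef6 EV samples 1 was at 6.99 and the other 2 at 14.13 and 14.79. High and low Ttr thus occurred in both vehicle and vesicle groups after chemoradiation, and in the UCI-191 EV group all 3 samples were high. The panel held 1 choroid plexus marker, Ttr itself, and the part of the amount of that tissue in the results below was not tested.

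Pla2g5, a secreted phospholipase, was at 4.71, 7.35, 6.96 and 6.30 with vehicle and at 7.61, 7.11 and 7.75 with UCI-191 EV (difference 1.16, and 0.62 without replicate 1). Ltc4s, the enzyme that makes leukotriene C4, was at 4.81, 6.02, 6.60 and 6.13 against 6.99, 6.44 and 6.87 (difference 0.88, and 0.52 without replicate 1). Steap4, a metal reductase, differed by 0.77, or 0.32 without that sample, whose value of 4.30 lay just under background. In all 6 of the genes with the largest positive differences, Cdkn1c and Ccl7 included, that vehicle sample was the lowest of the 7 and the difference was smaller without it. The same sample was lowest in 33.4% of all probes.

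Of the 11 genes that the study names for UCI-191 EV after chemoradiation, 7 lay above background and 0 passed the test. In 6 of the 7 RT-TMZ + Veh replicate 1 was the lowest sample, against 33.4% of all probes. All 11 had a higher mean with UCI-191 EV, and in none were the groups free of overlap. These genes were picked on the same samples, so their direction is not independent evidence. Cdkn1c, the cyclin-dependent kinase inhibitor p57, was at 6.68, 8.96, 8.84 and 7.85 with vehicle and at 9.08, 8.96 and 9.39 with UCI-191 EV. Its difference of 1.06 (standard error 0.50, adjusted p = 0.735) was 0.59 without replicate 1. The 2 groups met at 8.96.

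Fbln5, an elastic fibre protein of vessels, was at 6.46 and 7.13 in RT-TMZ + Veh replicates 1 and 4 and at 7.87 or just above in the other 2, against 7.87, 8.02 and 8.23 (difference 0.68, and 0.37 without replicate 1). Eomes, a transcription factor of neural progenitors and of T and NK cells, was at 5.07, 6.43, 6.50 and 5.27 against 6.36, 6.30 and 6.51 (0.57, and 0.32 without it). Prkcq, a protein kinase C of T cell signaling, was at 6.96, 8.11, 8.05 and 7.49 against 8.35, 7.76 and 8.47 (0.54, and 0.31 without it). In each of these genes at least 1 other vehicle sample lay within the range of the UCI-191 EV samples.

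Ccl7, a chemokine for monocytes, was at 3.90, 4.12, 4.93 and 4.42 with vehicle and at 4.64, 5.33 and 5.12 with UCI-191 EV, so that 2 vehicle samples lay under background (difference 0.69, and 0.54 without replicate 1). Dab2, an endocytic adaptor, differed by 0.41, or 0.15 without that sample. Dlx2, a transcription factor of interneurons, was at 6.63, 6.75, 6.59 and 6.23 against 6.59, 6.91 and 7.02 (difference 0.29, standard error 0.16) and was the only one of the 7 in which replicate 1 was not lowest. Dab2, Dlx2 and Cst7 are named from plots whose legend gives Control + Veh as the reference. Pilrb1 is named from these plots and also from the comparison with RT-TMZ + Veh. The study states that the changes in the plots against Control + Veh had low statistical significance. Against Control + Veh, Dab2 rose by 1.12 with UCI-191 EV (adjusted p = 0.00596, limma), and Dlx2 had a difference of 0.34 that did not pass (adjusted p = 0.144). Gzma, Pilrb1, Cst7 and Fasl had means under background in both groups, with differences of 0.34, 0.06, 0.28 and 0.22 that cannot be read as levels.

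**Figure D2:**
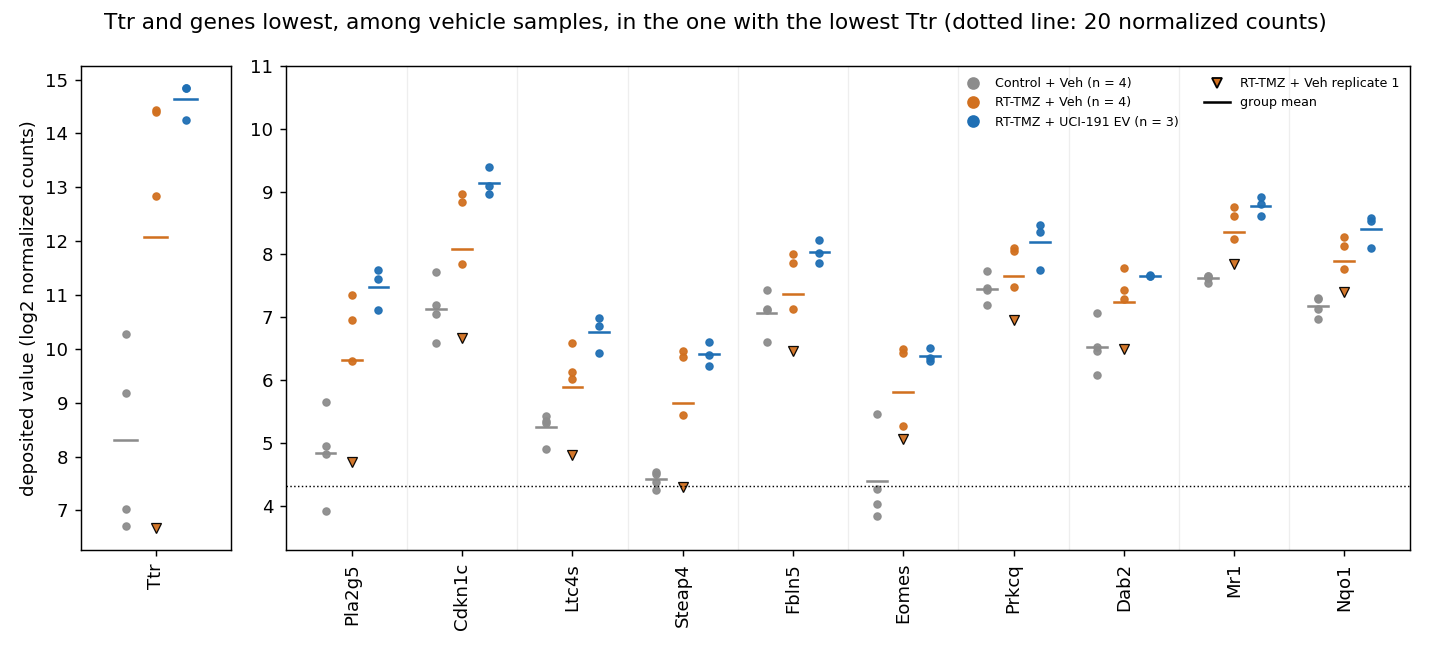
Deposited log2 values by sample for Ttr (left axis) and for 10 genes in which RT-TMZ + Veh replicate 1 (orange triangle) was the lowest vehicle sample; short lines are group means, colours are as for the 24 genes without overlap and the dotted line marks 20 normalized counts. The triangle lies at 6.67 for Ttr, 7.22 below the mean of the other 3 vehicle samples, and the remaining vehicle points lie closer to the UCI-191 EV points.

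Of genes with a mean above background, those with the largest negative differences were Lcn2, Mmp12, Lrg1, Ikbke, Cd72 and Nlrp3, genes of inflammation and immune cells at low levels. Lcn2, an iron-binding acute-phase protein of reactive astrocytes and neutrophils, was at 5.03, 6.00, 6.27 and 5.90 with vehicle and at 4.79, 5.09 and 5.49 with UCI-191 EV (difference −0.68, standard error 0.30, adjusted p = 0.735). Without RT-TMZ + Veh replicate 1 the difference was −0.93, and the groups then did not overlap. Mmp12, the macrophage metalloelastase, was at 5.30, 5.47, 5.66 and 5.42 against 5.31, 4.79 and 4.76 (difference −0.51, standard error 0.18), and 2 of the 3 UCI-191 EV samples lay below all vehicle samples. Lrg1, a secreted glycoprotein induced in inflamed vessels, differed by −0.44 (−0.55 without replicate 1). The kinase Ikbke differed by −0.41 and Nlrp3, the sensor of the inflammasome, by −0.40 (−0.24 without replicate 1). In Lrg1, Ikbke and Nlrp3 the samples overlapped and UCI-191 EV means lay under or close to background.

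Interferon genes were set apart by 1 UCI-191 EV sample. Interferons signal through receptors and the transcription factors of the IRF and STAT families, which bind short motifs in the promoters of a shared set of antiviral genes. Of 22 measured genes of interferon response and RNA sensing, 17 were higher and 4 lower with UCI-191 EV (median 0.18, against −0.01 over all probes) and 0 passed the test. In 12 of the 22, replicate 2 of the UCI-191 EV group was the highest of the 7 samples, and in 11 it was the highest of all 24, whereas it was highest of the 7 in 87 of all 757 probes (11.5%). Without that sample the median was 0.05, with 14 genes higher and 8 lower. RT-TMZ + Veh replicate 1 was lowest in 14 of the 22, against 33.4% of all probes, and without it the median was 0.09. The genes described next, other than Irf1, Mavs and Ifitm3, were chosen after their values had been seen.

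Irf7, the master regulator of type I interferon genes, was at 5.13, 7.42 and 5.78 with UCI-191 EV and at 5.40, 5.81, 5.81 and 5.68 with vehicle, so that replicate 2 lay 3.53-fold above the mean of the other 6 samples. Rsad2 (viperin), an antiviral enzyme, was at 6.31, 8.09 and 6.53 against 6.01, 6.65, 6.45 and 6.27, and Zbp1, a sensor of viral nucleic acids, at 4.28, 6.82 and 5.28 against 5.23, 5.08, 4.79 and 5.84. In these 3 genes UCI-191 EV replicates 1 and 3 lay within or below the range of the vehicle samples, while replicate 2 was 3.29-fold above the other 6 in Rsad2 and 3.33-fold in Zbp1. Cxcl10, an interferon-induced chemokine, was at 4.47, 7.14 and 5.66 against 5.11, 5.41, 6.91 and 5.90, which places a vehicle sample close to replicate 2. The same sample was highest in Slfn8 (2.52-fold above the other 6), Oas1g (2.40), the RNA sensors Ddx58 (2.07) and Ifih1 (1.98), Gbp2 (1.80), Ifitm3 (1.60), Psmb8 (1.48) and Irf1 (1.29).

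The promoter stretches of 5 of these genes are shown because they hold the letters that IRF proteins bind. The motif searched was GAAANNGAAA on both strands, in windows of 300 bases (250 before and 50 after the start) from RefSeq, build GRCm38.p6, in which 21 of the 22 genes had an entry and Zbp1 had none. It was found in 8 of the 11 genes in which replicate 2 was highest and in 2 of the other 10, against 1131 of 32851 promoters in all (3.44%). Wholly before the start it was found in 5 of the 11 and 2 of the 10, against 978 of 32851 promoters (2.98%). A match is a description of the letters and not of a bound site. Capitals mark the match, which reads TTTCNNTTTC where it lies on the opposite strand, and each stretch holds up to 40 bases on either side within the part before the start.
Oas1g, chr5:120887614-120887665, minus strand: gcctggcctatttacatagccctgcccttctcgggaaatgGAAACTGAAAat
Rsad2, chr12:26456523-26456612, minus strand: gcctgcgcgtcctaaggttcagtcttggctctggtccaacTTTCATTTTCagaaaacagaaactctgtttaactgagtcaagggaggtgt
Gbp2, chr3:142620564-142620653, plus strand: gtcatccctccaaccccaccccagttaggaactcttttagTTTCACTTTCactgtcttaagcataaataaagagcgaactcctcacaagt
Slfn8, chr11:83020811-83020898, minus strand: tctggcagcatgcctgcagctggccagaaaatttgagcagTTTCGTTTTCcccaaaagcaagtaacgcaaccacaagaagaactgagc
Cxcl10, chr5:92349053-92349139, minus strand: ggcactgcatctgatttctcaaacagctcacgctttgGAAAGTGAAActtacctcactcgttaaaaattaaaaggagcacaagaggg
The matches lie 12 bases before the start in Oas1g, 48 in Slfn8, 59 in Gbp2, 120 in Rsad2 and 213 in Cxcl10, counted from the first base of the match as printed, and in Oas1g a second match overlaps the one shown.

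**Figure D3:**
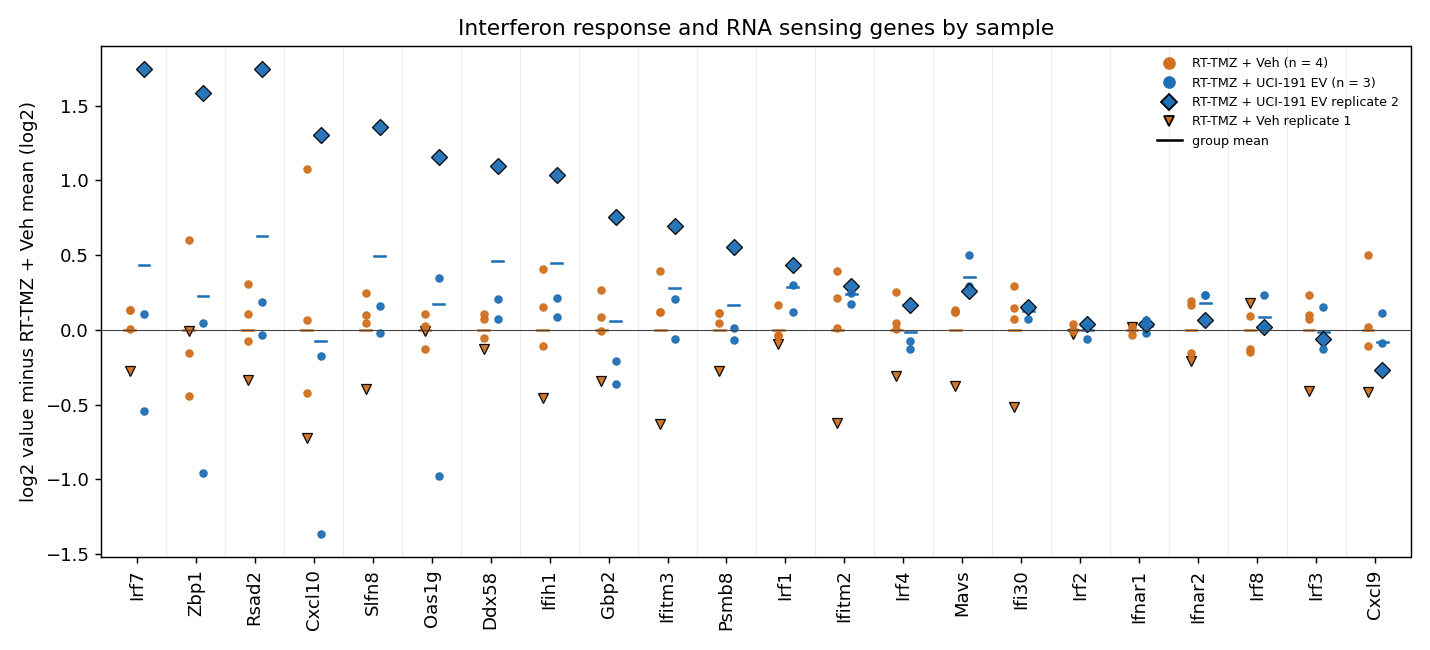
Each point is 1 sample's log2 value minus the RT-TMZ + Veh mean for the 22 interferon and RNA sensing genes, with UCI-191 EV replicate 2 as a diamond, RT-TMZ + Veh replicate 1 as a triangle and group means as short lines. The diamond is the highest point in the first 12 genes, by 3.53-fold over the mean of the other 6 samples in Irf7, and lies among the other points in the rest.

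Against untreated mice, chemoradiation left large differences with and without the vesicles. RT-TMZ + Veh differed from Control + Veh in 135 of 757 probes (17.8%; 92 higher, 43 lower) and RT-TMZ + UCI-191 EV in 159 (21.0%; 119 higher, 40 lower). The counts share the Control + Veh samples, and the split depended on the scaling: after quantile normalization it was 66 higher and 82 lower for vehicle and 84 and 95 for UCI-191 EV, and with each sample centred on its median 99 and 160 for UCI-191 EV, whose median over all probes then moved from 0.03 to −0.10. With Ttr as a covariate 0 probes passed for UCI-191 EV, where all 3 treated samples had more Ttr than all 4 controls, and 72 for vehicle. The values of the same genes in the 3 groups are given side by side.

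Cdkn1a, the p53 target p21, was at 7.82, 7.93, 7.88 and 8.28 in Control + Veh, at 9.41, 9.67, 9.83 and 9.67 in RT-TMZ + Veh and at 9.73, 9.85 and 9.95 in RT-TMZ + UCI-191 EV mice. It rose by 1.67 with vehicle (adjusted p = 5.01e-05) and by 1.87 with UCI-191 EV (adjusted p = 0.000164), and the 2 treated groups differed by 0.20 (standard error 0.10), or 0.12 without RT-TMZ + Veh replicate 1. C4a, complement component 4, rose by 1.67 and 1.71, and C3ar1, the receptor for the complement fragment C3a, by 1.31 and 1.33. Treated groups differed by 0.04 in C4a and 0.02 in C3ar1 (95% intervals −0.22 to 0.29 and −0.27 to 0.31). Lilrb4a, an inhibitory receptor of myeloid cells, was at 4.82, 4.49, 4.18 and 5.14 in untreated mice, at 6.75, 7.04, 7.22 and 7.09 with vehicle and at 7.06, 7.27 and 6.82 with UCI-191 EV, so it rose by 2.37 and by 2.39. For all 4 of these genes every treated sample lay above every untreated one and the treated groups overlapped.

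Microglial genes passed the test against untreated mice in both treated groups. Cd84, a SLAM family receptor, rose by 1.13 with vehicle and 0.91 with UCI-191 EV and differed by −0.22 between treated groups (standard error 0.10, adjusted p = 0.735). Mpeg1, the pore-forming perforin-2 of phagocytes, rose by 0.76 and 0.74, C1qa, a C1q subunit, by 0.53 and 0.40, and Tyrobp, the adaptor of TREM2, by 0.48 and 0.38. Csf1r, the receptor that keeps microglia alive, fell by 0.56 and by 0.57 and was picked after its values had been seen. Between treated groups Mpeg1, C1qa and Tyrobp differed by −0.03, −0.13 and −0.10, and their samples overlapped.

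The UCI-191 EV mean lay nearer to the untreated mean than the vehicle mean did in some genes and farther from it in others. Over all 757 probes the median size of the difference from untreated mice was 0.145 with vehicle and 0.15 with UCI-191 EV. How many of all probes lay nearer or farther was not counted. The UCI-191 EV mean was farther in Cdkn1a, Homer1, Creb1 and Man2b1. It was nearer in S100b, Calr, Eef2k, Setd1a and Setd1b. It was also nearer in the 5 genes given next, which were picked after their values had been seen. Cd72 rose by 1.37 with vehicle and by 0.97 with UCI-191 EV, Mmp12 by 1.77 and 1.26, and Lcn2 by 1.39 and 0.71. The untreated means of Cd72 and Mmp12 lay under background, so the size of their rises cannot be read. Lrg1 rose by 0.81 with vehicle, and its difference of 0.38 with UCI-191 EV did not pass (adjusted p = 0.105). Gadd45g fell by 0.48 with vehicle and had −0.18 with UCI-191 EV (adjusted p = 0.069). The difference between these paired values is the contrast of the 2 treated groups itself, which passed the adjusted test for none of the 5. Tnfrsf25, a death-domain receptor, fell by 1.32 and 1.10, and Egr1, an immediate early transcription factor, fell by 0.79 and 0.94.

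**Figure D4:**
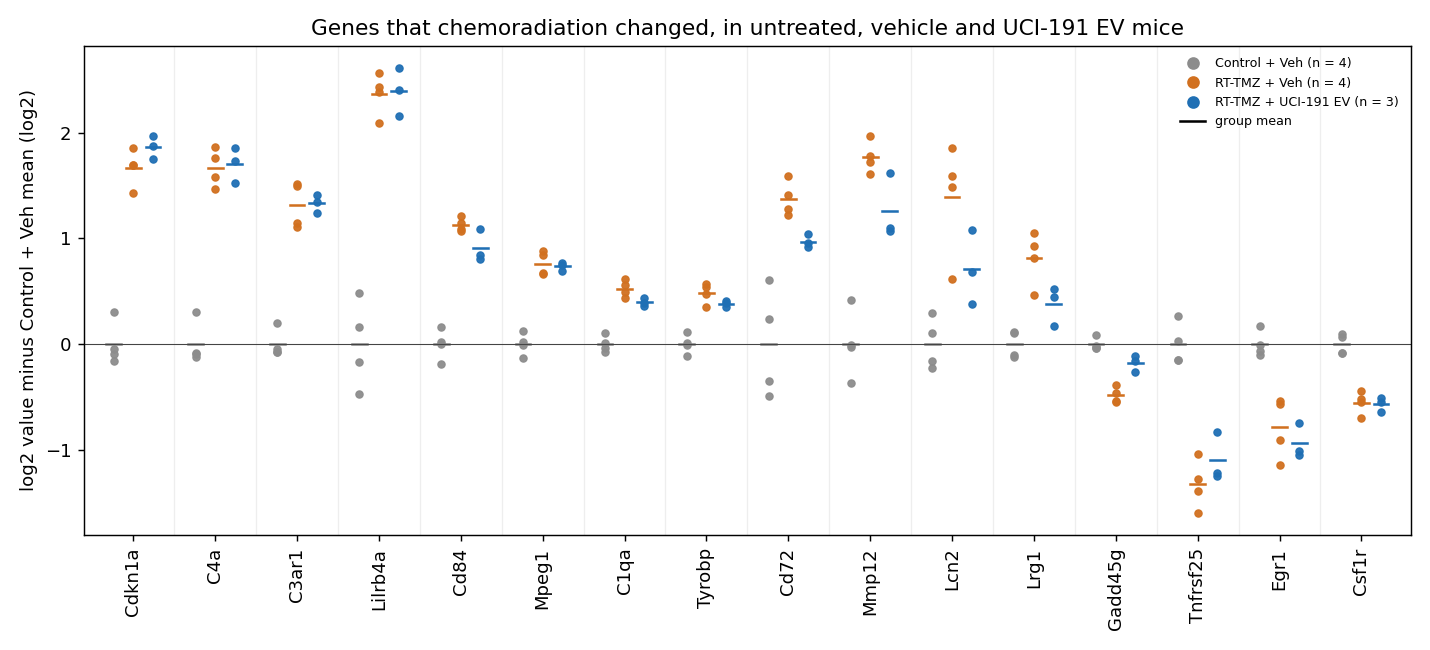
Each point is 1 sample's log2 value minus the Control + Veh mean for 16 genes; short lines are group means, grey is Control + Veh (n = 4), orange RT-TMZ + Veh (n = 4) and blue RT-TMZ + UCI-191 EV (n = 3). Cdkn1a, C4a, C3ar1 and Lilrb4a lie 1.31 to 2.39 above untreated in both treated groups, and the blue points of Cd72, Mmp12, Lcn2, Lrg1 and Gadd45g lie nearer to 0 than most orange points. The untreated means of Cd72 and Mmp12 lie under background.

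Gene lists were described by the 31 that had at least 5 measured members, and in each of them 0 genes passed the test between UCI-191 EV and vehicle. Over all probes 366 were higher and 388 lower with a median of −0.01. Synaptic and neuronal genes were mostly lower, 24 of 30 with a median of −0.08 (−0.05 without RT-TMZ + Veh replicate 1), and 3 of the 30, Homer1 and Vamp7 among them, were lower without overlap, against 4.23% of all probes. Immediate early and activity-dependent genes were lower in 7 of 8 (median −0.14, and −0.22 to −0.10 with a sample left out). Homer1 and Creb1 were the 2 without overlap. In the same list Bdnf, a neurotrophin, was at −0.27 (standard error 0.12), or −0.19 without RT-TMZ + Veh replicate 1. Sample medians of both lists overlapped between groups, and RT-TMZ + Veh replicate 1 was the highest of the 7 in each, at 0.09 and 0.24 above the vehicle mean.

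Ribosomal and respiratory chain genes were lower in 11 of 12 (median −0.06), and 4 of the 12 were lower without overlap, against 4.23% of all probes. Rps21 was at 15.09, 15.08, 15.06 and 14.99 with vehicle and at 14.95, 14.94 and 14.95 with UCI-191 EV, Rpl9, of the large subunit, differed by −0.09 and Cox5b, of cytochrome c oxidase, by −0.08. The list's median per sample, relative to the vehicle mean, was −0.06, −0.07 and −0.05 with UCI-191 EV and 0.03, 0.03, −0.01 and −0.03 with vehicle, so the groups did not overlap, and the untreated samples lay between −0.10 and −0.06. Autophagy genes were lower in 13 of 19 (median −0.05, and −0.03 without RT-TMZ + Veh replicate 4), with sample medians of −0.03, −0.04 and −0.03 against −0.02 to 0.03 in the vehicle samples, again without overlap. These 4 lists and the interferon list kept their sign after median centring and quantile normalization. Of the 31 lists only the ribosomal and autophagy lists had sample medians without overlap. That share is close to the 6.61% of all probes without overlap.

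Genes of p53 targets and cell cycle inhibitors were higher in 10 of 13 (median 0.08, 0.06 to 0.15 with a sample left out and 0.01 with each sample centred on its median). Of the 13, 3 were higher and 1 lower without overlap, against 2.38% and 4.23% of all probes. Lists of activated microglia, complement and reactive astrocytes divided nearly evenly with all samples, and less so without RT-TMZ + Veh replicate 1. Activated and disease-associated microglia had 12 higher and 11 lower (median 0.01), complement 5 and 5 (0.01) and reactive astrocytes 13 and 16 (−0.01), and the first 2 medians turned negative with median centring, at −0.07 each. Without that vehicle sample 8 of 23, 3 of 10 and 8 of 29 were higher, with medians of −0.04, −0.04 and −0.08. Against untreated mice 15 of 23, 6 of 10 and 10 of 29 genes of these lists rose with vehicle, where 12.2% of all probes rose, and 14, 7 and 14 with UCI-191 EV, where 15.7% did. In complement 1 gene fell in each of the 2 comparisons. Homeostatic microglia had 5 higher and 10 lower (median −0.03, and −0.11 without RT-TMZ + Veh replicate 1), where Gpr34, a lysophospholipid receptor, had a difference of −0.29 (standard error 0.11) and Tmem119, a marker of resident microglia, one of −0.25 (standard error 0.10).

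**Figure D5:**
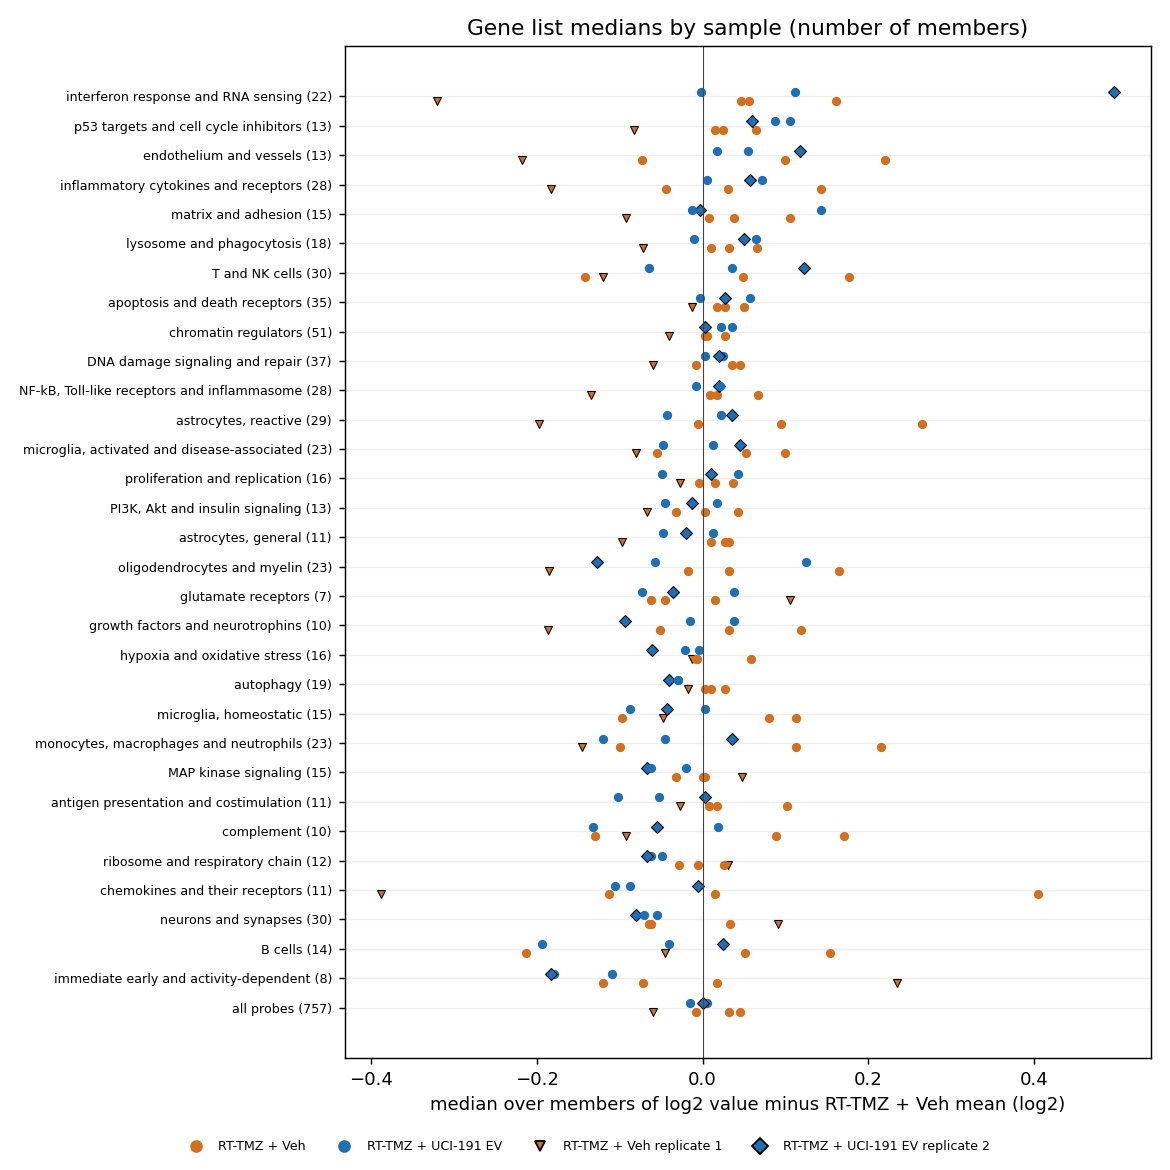
Points are medians over the members of each gene list, per sample, of the log2 value minus the RT-TMZ + Veh mean (orange, RT-TMZ + Veh; blue, RT-TMZ + UCI-191 EV; number of members in brackets), with RT-TMZ + Veh replicate 1 as a triangle and UCI-191 EV replicate 2 as a diamond. The diamond stands out in the interferon list at 0.50. Of the 31 lists only the ribosomal and autophagy lists have all blue points below all orange points, a share close to the 6.61% of probes without overlap.

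Vesicles of the other cell line were compared after the same chemoradiation. UCI-191 EV and Shef6 EV mice differed in 0 of 757 probes (0%; limma), while 59 were higher and 24 lower at p under 0.05 before adjustment, and the methods' t-test gave 1. The 3 smallest p belonged to Trpa1, Pros1 and Ptger4. Trpa1, an irritant-sensing ion channel, was at 4.97, 5.48 and 4.97 with UCI-191 EV and at 3.84, 4.25 and 4.03 with Shef6 EV, where all 3 lay under background, and its vehicle samples, at 5.49, 4.34, 4.88 and 3.94, spanned both. Pros1, a ligand of TAM phagocytic receptors, was at 8.64, 8.65 and 8.61 against 8.26, 8.27 and 8.30 (difference 0.36, standard error 0.06, adjusted p = 0.355). The microglial genes Ctss, a lysosomal protease, and Tyrobp were higher than with Shef6 EV by 0.29 and 0.26 and Crip1, a LIM-domain protein, by 0.36 (adjusted p = 0.355, 0.363 and 0.355), with no overlap in any of these genes. Between UCI-191 EV and Shef6 EV 113 of all 757 probes did not overlap, and these genes were picked by their small p. Without RT-TMZ + Shef6 EV replicate 3 the count was 103 probes (49 higher, 54 lower), so the count of 0 rested on that sample.

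The UCI-191 EV effect, EV minus vehicle, was then set against that in mice with a CT2A tumor, as the difference of both effects in 1 fit of 14 samples. It passed the test for 14 of 757 probes (1.85%), 2 with the higher effect and 12 with the lower effect in tumor-free mice. Most were near 0 without tumor. Tie1, a receptor of endothelial cells, had an effect of 0.28 without and 1.77 with tumor, Pecam1, an endothelial adhesion molecule, 0.11 and 1.59, Esam, a tight junction protein, 0.03 and 0.93, and Slc2a1, the glucose transporter of the blood-brain barrier, −0.02 and 0.94. Tnfsf10, which encodes the death ligand TRAIL, had 0.10 and 1.98. The gene with the smallest p was Rb1cc1, at −0.15 without and 0.27 with tumor (difference −0.42, standard error 0.07, adjusted p = 0.036). In Rb1cc1 every UCI-191 EV sample lay below vehicle without tumor, and with tumor all 3, at 11.16, 11.21 and 11.16, lay above the 4 vehicle samples at 10.85, 10.93, 10.85 and 10.99. The 4 tumor-bearing vehicle samples had the lowest implied totals of the series (861986 to 935946). Of these, 3 had low Ttr (7.49, 5.31 and 7.23). Medians of the endothelium and vessel list, relative to the RT-TMZ + Veh mean, were −1.05, −1.01, −0.84 and −0.63 in these 4 samples. They were −0.08, 0.10 and 0.06 in the CT2A + RT-TMZ + UCI-191 EV samples. CT2A-bearing mice given Shef6 EV had −0.10, 0.07 and 0.31. The part of the tumor-bearing vehicle samples in the difference was not tested. The count was 0 without the mean trend and without any one of 9 of the 14 samples, so these 14 calls rest on most single samples.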

How the data were processed

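RNA of 24 brain samples was hybridized to the nCounter Mouse Neuroinflammation panel. The authors normalized the counts to positive controls and then to internal reference genes in nSolver, and the deposited log2 values are these normalized counts. The 54 of 757 probes without a gene symbol entered every test and are not reported singly. Each sample's scaling factor was recovered from the grid of its low values (all within 0.15 of whole counts), a step checked on simulated data. Total counts bound only the counting error.

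Each comparison was fitted on its own groups with limma 3.58.1 (moderated test with mean trend) in R 4.3.3, with Benjamini-Hochberg adjustment over 757 probes and a threshold of 0.05. The series' design text gives 24 mice, 1 for each sample, so p-values measure the spread between animals within these groups. Figures and motif searches used Python 3.11.15, numpy 2.4.6, pandas 2.3.3 and matplotlib 3.10.9. Background was 20 normalized counts.

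Groups, gene lists and tests were chosen with earlier results of these data known. Genes were eligible for naming if the study names them, if their groups did not overlap (12 per direction with the smallest p, above background), if they had the 6 largest differences in a direction among genes above background, as examples of a list or a region, or as the 6 smallest p of another comparison, and not all are described. Other settings were quantile normalization, median centring, probes above background, a pseudocount of 20, fits without the trend, robust or with all 7 groups, Ttr as a covariate, the methods' t-test, replicate numbers as a block and each sample left out. Set tests were not run.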

Additional observations from a re-analysis of the deposited data

Results flagged for a closer look

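Among 242 groups of 4 samples (89 genes named in the text and the list medians), 9 held a sample far from the other 3. Chance gives about 1 in 20, which is more than was found. In the RT-TMZ + Veh group, Mavs was low in replicate 1, at 7.02, and Ptger4 low in replicate 2, at 4.20, which lies under background. The hypoxia and oxidative stress list had a median of 0.0588 above the vehicle mean in RT-TMZ + Veh replicate 3, the highest of the 4. In untreated mice C3ar1 and C4a were high in replicate 2, at 6.71 and 9.98. Control + Veh replicate 4 was high in Ccl7, at 4.44, in Dna2, at 5.55, and in Gadd45g, at 9.05, and low in Tmem119, at 9.38.

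The UCI-191 EV effect differed between tumor-free and CT2A-bearing mice in 14 genes, by the test of the difference in limma. The effect was lower in tumor-free mice for genes of endothelium and the vessel wall, with differences (tumor-free minus CT2A-bearing, log2) of −1.48 in Tie1, −1.49 in Pecam1, −0.90 in Esam, −0.66 in Jam2, a junction molecule, and −0.96 in Slc2a1. It was lower by the same measure in Tnfsf10, at −1.88, in Grm3, a metabotropic glutamate receptor, at −1.17, and in Pik3r1, a regulatory subunit of PI3 kinase, at −0.96. Further lower effects were those of St3gal6, a sialyltransferase (−0.82), Crem, a cAMP-responsive transcription factor (−0.75), Sod2, mitochondrial superoxide dismutase (−0.50), and Rb1cc1 (−0.42). In 2 genes it was higher, by 0.54 in Apoe, the main lipid carrier of the brain, and by 0.49 in Rps10, a ribosomal protein. The adjusted p ran from 0.036 to 0.048, and the count was 0 when any one of 9 of the 14 samples was left out. The 14 genes had effects between −0.15 and 0.28 in tumor-free mice, and between −0.53 and 1.98 in CT2A-bearing mice. The endothelium and vessel list was low in CT2A + RT-TMZ + Veh samples, at medians of −1.05 to −0.63 relative to the RT-TMZ + Veh mean. The CT2A-bearing samples with UCI-191 EV lay at −0.08 to 0.10 and those with Shef6 EV at −0.10 to 0.31. The part of the low vehicle level in these differences was not tested.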

How the results depend on the processing

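Between UCI-191 EV and vehicle mice 0 probes passed the threshold of 0.05 under every alternative and with any sample left out (1 in limma at a threshold of 0.5, added after seeing the data), with 22 to 63 at an unadjusted p under 0.05, and the smallest adjusted p of the 89 named genes was 0.251. Same-numbered samples of the 2 groups did not deviate together (r = 0.012, −0.075 and −0.067), though so few samples cannot show whether equal numbers shared a batch. As a block the replicate numbers gave 0 probes here, 68 for vehicle against untreated mice and an effect of 0 in Mpeg1.

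For vehicle against untreated mice (135 probes) the count was 88 with all 7 groups in 1 fit, 72 with Ttr as a covariate, 60 with the methods' t-test and 79 to 173 with a sample left out (79 without Control + Veh replicate 1, 82 and 84 without RT-TMZ + Veh replicates 3 and 4, and 173 without its replicate 1). For UCI-191 EV against untreated mice (159) it was 104, 0 and 75 with the same 3 alternatives and 259 with median centring. Against Shef6 EV (0) the methods' t-test gave 1 and leaving out a sample 0 to 103. The tumor difference (14) gave 7 with median centring, 0 without the trend, 63 with all 7 groups, 25 with Ttr, 1 with the methods' t-test and 0 to 72 with a sample left out. It was 0 without any one of RT-TMZ + Veh replicates 2, 3 and 4, the 3 RT-TMZ + UCI-191 EV samples, replicates 2 and 3 of CT2A + RT-TMZ + UCI-191 EV, or replicate 3 of CT2A + RT-TMZ + Veh. It was 60 without CT2A + RT-TMZ + Veh replicate 2, 72 without its replicate 4, 8 without its replicate 1 and 23 without CT2A + RT-TMZ + UCI-191 EV replicate 1. The cause was not tested.

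Small differences between UCI-191 EV and vehicle, none past the test, changed sign. Median centring gave −0.0575 in C3ar1, −0.0425 in C4a, −0.0442 in Esam, −0.0158 in Gbp2, −0.0525 in Lilrb4a and −0.015 in Pilrb1. Quantile normalization gave −0.0683 in C3ar1, −0.0334 in Esam, −0.0014 in Lilrb4a and 0.0133 in Rps10 and Sod2. With Ttr as a covariate the values were −0.0445 in C3ar1, −0.0539 in C4a, −0.1269 in Crip1, −0.0503 in Esam, −0.0714 in Gbp2, −0.0936 in Lilrb4a, −0.0559 in Pecam1 and −0.1388 in Tnfsf10.

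With a sample left out, the difference ranged from −0.05 to 0.0867 in C3ar1, −0.04 to 0.125 in C4a, −0.05 to 0.2533 in Crip1, −0.0633 to 0.0233 in Csf1r, −0.7675 to 0.5675 in Cxcl10, −0.02 to 0.1033 in Esam, −0.285 to 0.275 in Gbp2, −0.22 to 0.925 in Irf7 and −0.085 to 0.14 in Lilrb4a. It ranged from −0.06 to 0.0133 in Mpeg1, −0.315 to 0.75 in Oas1g, −0.0875 to 0.0275 in Pik3r1, −0.0567 to 0.1833 in Pilrb1, −0.025 to 0.285 in Psmb8, −0.06 to 0.0567 in Slc2a1, −0.0633 to 0.25 in Tnfsf10 and −0.455 to 0.815 in Zbp1.

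Of 186 list medians under other settings 30 moved by more than the spread of the samples, as did 7 of 217 with a sample left out. With 3 samples against 4, 1 choroid plexus marker and the reference genes not analysed here, the normalization and the tissue composition could not be checked further. Genes under background have no readable difference.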
